A study of Sus scrofa with 54 samples.

Results

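The ileum of 6 piglets raised in isolators with antibiotics (IR) was compared with that of 6 piglets suckled by outdoor sows (OUT), all 5 days old, which makes 12 of the 54 samples of the series. Samples were chosen by their labels alone, and each replicate is a piglet with 1 array. The sows were Large White × Landrace, and a single boar sired all litters. By the study's methods the work ran in 3 consecutive runs, with 2 piglets of each group in a run, and the labels do not say which piglet belonged to which run. The IR piglets were born to indoor sows, moved at 24 hours of age into isolator units, each piglet alone, fed milk replacer and dosed daily with a cocktail of the antibiotics Baytril and Amoxinsol 50. The OUT piglets stayed with their mothers at an outdoor facility and received no such treatment. Housing, mother, milk and antibiotics therefore changed together between IR and OUT and cannot be told apart. A further 6 piglets of the same age that were suckled by the indoor sows (IN) are given beside them, since they shared birthplace with IR and rearing by the sow with OUT. Whole ileal tissue was taken at 75% of the intestinal length from the pyloric sphincter and its RNA was hybridized to Affymetrix porcine arrays, on which each transcript is read by 1 or more probesets.

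The ileum is the last stretch of the small intestine. In the suckling animal its epithelium takes up milk fat, packs it with cholesterol and apolipoproteins into chylomicrons, and engulfs milk proteins in vacuolated enterocytes. When cells sense little sterol, the transcription factors SREBF1 and SREBF2 switch on the enzymes that make fatty acids and cholesterol, and INSIG1 holds these factors back when sterol is plentiful. The same tissue meets the first gut bacteria, which it senses through receptors such as TLR2, and it answers viral and some bacterial signals with type I interferon and the large set of genes that interferon induces. Metallothioneins bind zinc and copper and are induced by these metals and by stress.

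Values are log2 signals, so that a difference of 1 is a 2-fold change, and differences are IR minus OUT throughout. A probeset was called when limma gave an unadjusted p under 0.01 and the fold change was at least 2, the thresholds that the study used. Of 24032 probesets tested 81 were called (0.337% of all), of which 55 were higher in IR (0.229%) and 26 lower (0.108%). When p was adjusted over all probesets, 2 had an adjusted p under 0.05 (0.00832%). Of the 81, 46 carry 1 gene symbol on the platform, 25 are named only by the study's annotation and 10 by neither. The median difference over all probesets was 0.01. The arrays were normalized before deposit, so this median cannot show whether a group was shifted as a whole. Differences were above 0 for 12734 probesets (53%) and below 0 for 11298. All 6 IR piglets lay above all 6 OUT piglets for 32 probesets (0.133%) and below them for 28 (0.117%). Among the 81 called probesets, however, ranges of the groups overlapped for 68, with IR wholly above OUT for 8 and wholly below for 5. The IN piglets were nearer to OUT than to IR for 51 of the 55 probesets that were higher in IR and for 14 of the 26 that were lower. Between IR and IN 88 probesets were called (0.366%) and between IN and OUT 12 (0.0499%). These comparisons share arrays with that of IR and OUT, and their values stand beside it as a description.

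A few piglets stood apart from their groups and bear on much of what follows. OUT piglet 3 had a mean correlation of 0.881 with the other OUT arrays, against 0.963 to 0.966 for the other 5. Its ileum read low for genes of absorptive enterocytes and high for genes of the deeper wall, vessels and inflammation. Other epithelial markers differed less. The mean of goblet cell genes was 9.21, against 9.56 to 10.27 in the other OUT piglets, and that of enteroendocrine genes 6.05, against 5.71 to 6.18. The mean log2 level of 7 brush border genes was 7.42 in this piglet and 10.33 to 10.84 in the other OUT piglets, and that of 15 apolipoprotein and chylomicron genes was 6.11 against 11.22 to 11.89. By contrast, its mean was 11.89 over 12 smooth muscle genes, against 10.40 to 10.89 in the other OUT piglets. For 16 endothelial genes it was 7.23, against 4.75 to 5.15, and for 23 cytokines and chemokines 8.48, against 4.75 to 5.26. The mean over 6 neutrophil and mast cell genes was 6.32, while the other OUT piglets stood at 2.75 to 3.02. Since the samples are pieces of whole tissue, fewer cells of a type and less RNA per cell cannot be told apart. In IR, piglets 1 and 2 stood apart in another way, with a mean over 22 interferon-induced genes of 10.31 and 10.41, against 6.79 to 7.55 in the other 4.

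**Figure D1:**
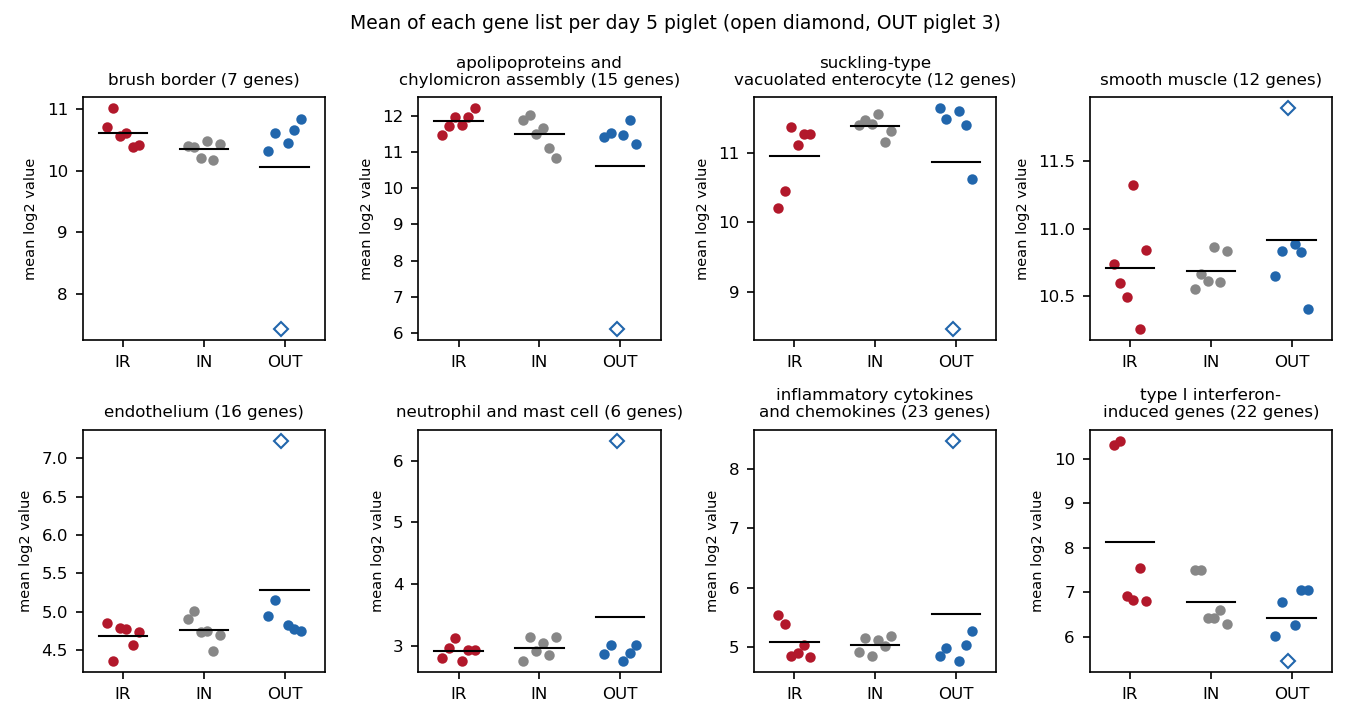
Mean log2 value of 8 gene lists (vertical axes) in each day 5 piglet of IR, IN and OUT (horizontal axes), with the group mean as a line and OUT piglet 3 as an open diamond. OUT piglet 3 is the lowest OUT piglet for brush border (7.42), apolipoprotein and vacuolated enterocyte genes and the highest for muscle, vessel and inflammatory genes, and IR piglets 1 and 2 lie above 10 for interferon-induced genes.

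Without OUT piglet 3 the number of calls hardly moved, but the genes did. In the fit of the other arrays 82 probesets were called, 48 higher in IR (0.200%) and 34 lower (0.141%). Of the original 81, 47 remained, and these held 35 of the 55 higher and 12 of the 26 lower probesets. The other 34 needed OUT piglet 3 to be called, and 35 were called only in its absence, of which 22 were lower in IR. For 42 of the 81 called probesets this piglet had the lowest or the highest value of all 18 arrays. Without IR piglets 1 and 2 instead, 49 probesets were called (0.204%), of which 29 were among the 81. Results below whose call changed without OUT piglet 3 are therefore marked as such.

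With each of the 18 arrays left out in turn, 31 of the 60 called transcripts named below were called every time. They include SCD, FASN, both INSIG1 probesets, FDPS, FDFT1, CYP51A1, both LPCAT3 probesets, STARD10, MT1A, TLR2, AGTR1, CACNA2D1 and the lower RBP4 probeset. The most calls were lost without IR piglet 2 (23), OUT piglet 3 (21) and IR piglet 1 (17). Some transcripts lay on a threshold. LYVE1, 2.01-fold lower, lost its call without any of 7 arrays, and AGPAT2 and DESI2 without any of 14. With IR piglets 1 and 2 both left out, SCD (4.38), FASN (1.67), STARD10 (2.90), MT1A (6.53), AGTR1 (-1.43), CACNA2D1 (-1.55) and LYVE1 (-1.06) were called. TLR2 (-1.56), RBP4 (-1.76), PDK4 (-1.62), KLF9 (-0.82), APOA2 (4.30), MAP6 (-1.36) and CCL28 (1.03) were not.

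**Figure D2:**
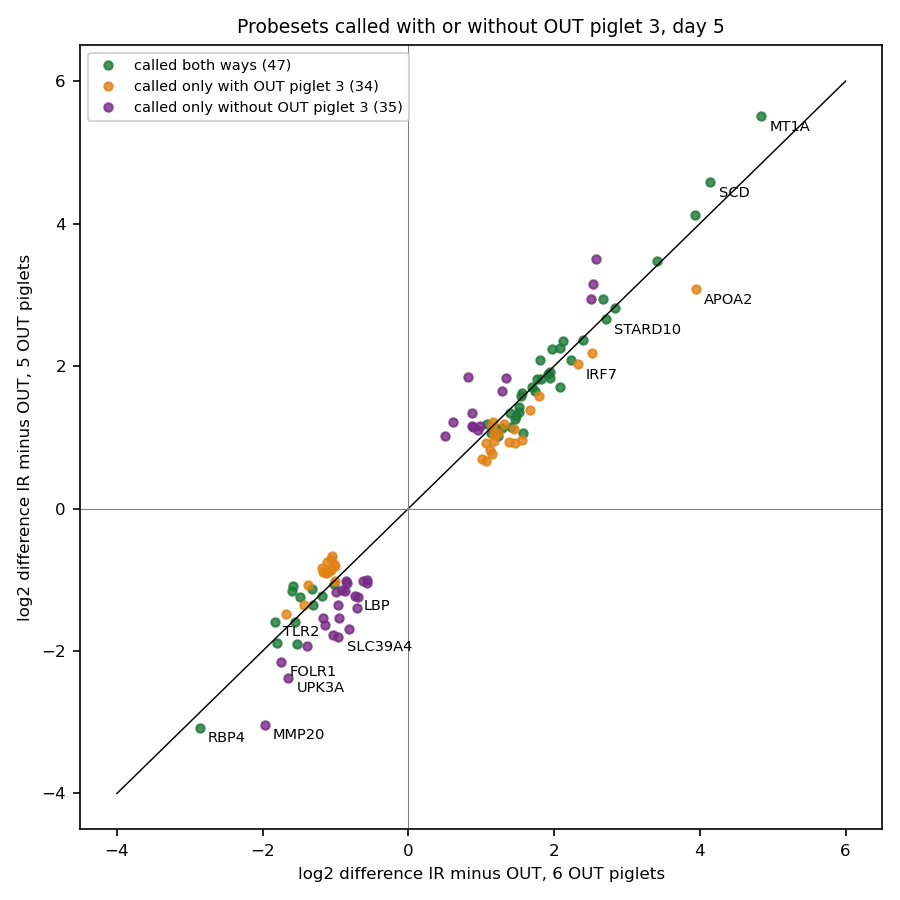
Log2 difference IR minus OUT at day 5 of each called probeset with all 6 OUT piglets (horizontal axis) and with 5, OUT piglet 3 left out (vertical axis). Green points (47) were called both ways, orange points (34) only with OUT piglet 3 and purple points (35) only without it, and the line marks equal values.

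Among the genes of fatty acid synthesis SCD, FASN and SREBF1 were higher in IR. SCD, which desaturates stearate to oleate, ranged from 8.69 to 10.98 in IR (median 9.36) and from 3.70 to 7.70 in OUT (median 5.40). The lowest IR piglet was thus above the highest OUT piglet, which was OUT piglet 3, and IN stood with OUT at 5.45 ± 1.18 (SD, n = 6). SCD was 17.7-fold higher in IR by limma (adjusted p = 0.0431), and without OUT piglet 3 the log2 difference widened from 4.14 to 4.58. FASN, the synthase that builds palmitate, ranged from 6.42 to 9.19 in IR and from 4.99 to 7.37 in OUT, with medians of 8.12 and 5.78. It rose by 1.97 (standard error 0.44, exact permutation p = 0.0108), and the groups overlapped only through IR piglets 3 and 4, at 7.04 and 6.42, and OUT piglets 2 and 3, at 6.57 and 7.37. The mean of all FASN probesets differed by less, 0.93, and was not called. SREBF1, the factor that controls both genes, was higher by 1.23 (standard error 0.37, exact permutation p = 0.00866) but missed the threshold without OUT piglet 3 (1.06). These were the 3 of 10 measured fatty acid synthesis genes that were called, beside 0.229% of all probesets called higher. The other 7, among them ACSS2 (0.95), ELOVL6 (0.37), FADS1 (0.26) and the carboxylase ACACA (0.15), did not pass, and the list median was 0.34 against 0.01 over all probesets. That median moved with single piglets, to 0.62 without OUT piglet 3, 0.63 without IR piglet 4 and 0.18 without OUT piglet 4.

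The enzymes that make cholesterol were higher in IR from the first steps of the pathway to the last. Of 11 measured enzymes with a platform symbol 8 were called higher and none lower, beside 0.229% and 0.108% of all probesets. All 11 differences were above 0, beside 53% of all probesets, and the median of the 11 was 1.57. At the entry of the pathway ACAT2, which joins acetyl groups, was higher by 2.13 (standard error 0.58). The study listed this probeset as TCP1, and a dimmer ACAT2 probeset was higher by 2.67 (standard error 0.62). HMGCS1, which adds the next acetyl group, ranged from 8.55 to 11.39 in IR and from 7.58 to 9.55 in OUT. FDPS, which makes farnesyl diphosphate, ranged in IR from 10.59 to 11.80 (median 10.98) and in OUT from 8.29 to 10.59 (median 9.28). FDPS was higher by 1.70 (standard error 0.38), and the lowest IR piglet, at 10.587, was only just above the highest OUT piglet, at 10.585. FDFT1, the squalene synthase, was 4.25-fold higher (log2 difference 2.09, standard error 0.55, exact permutation p = 0.0152).

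SQLE, which oxidizes squalene in a rate-limiting step, fell into clusters among the OUT piglets. OUT piglets 1, 4 and 5 lay at 3.45, 3.33 and 3.84, and OUT piglets 2, 3 and 6 at 8.16, 7.95 and 7.78, while IR ranged from 6.21 to 9.92 and IN from 2.88 to 6.57. The higher OUT cluster was thus within the range of IR and above every IN piglet. The difference of 2.51 had a standard error of 0.98 and did not pass (exact permutation p = 0.0628), although it did without OUT piglet 3 (2.95). The mean over the 11 enzymes was 8.53 and 8.41 in OUT piglets 2 and 6 and 6.54 to 6.94 in OUT piglets 1, 4 and 5. OUT piglet 3, which belonged to the higher SQLE cluster, lay between them at 7.49. In IR the lowest means were those of piglets 3 and 4, at 8.02 and 7.94, and the highest those of piglets 1 and 2, at 9.87 and 9.94. Without IR piglets 1 and 2 all 11 differences were still above 0, with a median of 1.26, but only 2 were called, FDPS and CYP51A1. The study measured SQLE again by real-time PCR, and its primers, shown in full because they define the piece of the transcript that was amplified, were as follows, 5′ to 3′ and without capitals because no part was singled out.
SQLE forward: ttcgtctctctggccaacaa
SQLE reverse: ccccagcgacaggaatacc

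Enzymes of the later steps, from lanosterol to cholesterol, were also higher. CYP51A1, which strips a methyl group from lanosterol, rose by 1.52 (standard error 0.36), MSMO1 by 1.74 (standard error 0.53), NSDHL by 1.17 (standard error 0.35) and SC5D by 1.23 (standard error 0.37). The NSDHL call was lost without OUT piglet 3 (1.03) and also without IR piglet 1, IR piglet 2 or OUT piglet 4. TM7SF2, a sterol reductase at 3.33 to 4.73 in IR and 2.78 to 3.80 in OUT, had the smallest difference of the list (0.73), and HSD17B7 was at 0.87, neither being called. Without OUT piglet 3 HSD17B7 stood at 1.15 and was called. A further 5 enzymes described here carry no platform symbol and are named only by the study's annotation of its probesets, so their direction was known when they were chosen. All 5 were called. EBP, a sterol isomerase, had the widest difference, with IR at 8.50 to 10.08 (median 9.72) and OUT at 4.78 to 8.42 (median 6.54). No EBP value of IR overlapped OUT, the fold was 7.14, and the exact permutation p was 0.00216, the smallest that 6 piglets against 6 can give. The reductase DHCR7 was higher by 1.94, IDI1 by 1.77, MVD by 1.52 and MVK by 1.28. All 5 were also called without OUT piglet 3, at 1.12 to 2.81. Without IR piglets 1 and 2, EBP (2.57) and IDI1 (1.34) were called, and DHCR7 (1.21), MVD (0.92) and MVK (0.86) were not.

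**Figure D3:**
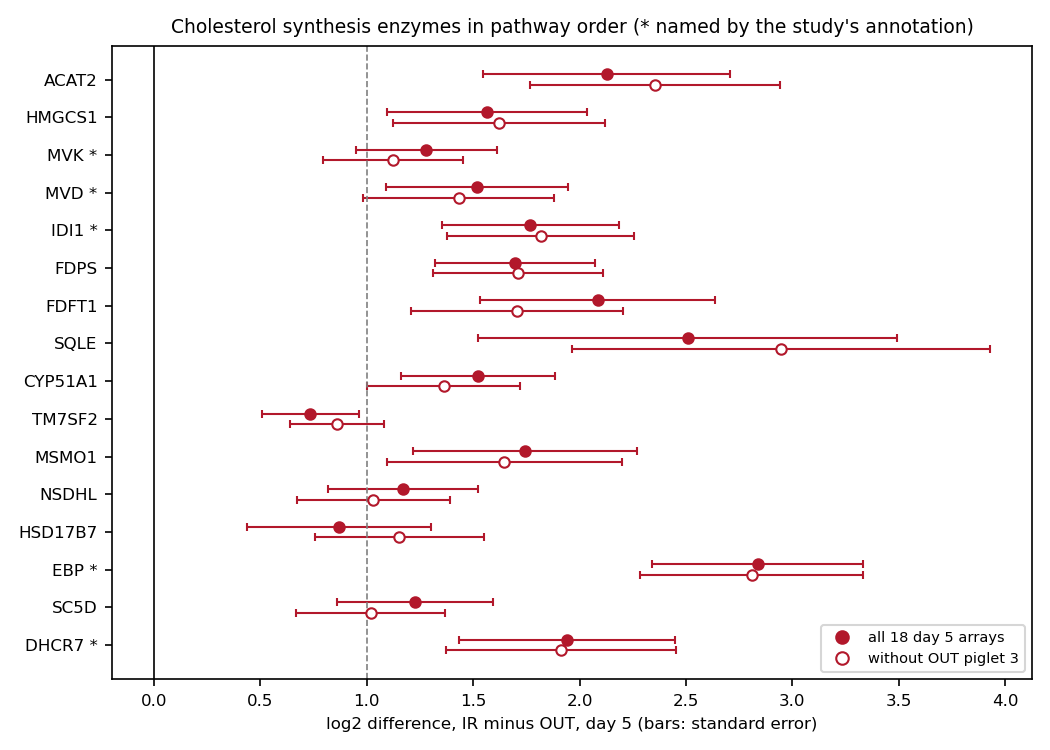
Log2 difference IR minus OUT at day 5 (horizontal axis, bars show the standard error) for 16 cholesterol synthesis enzymes in pathway order (vertical axis), with all day 5 arrays (filled) and without OUT piglet 3 (open). Every point lies to the right of 0, from 0.73 for TM7SF2 to 2.84 for EBP in the full fit, and the dashed line marks a 2-fold change.

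Genes of sterol sensing and disposal did not share a direction. INSIG1, the brake on SREBF processing, is read by a bright and a dimmer probeset. The dimmer ranged from 7.24 to 9.74 in IR and from 4.22 to 6.04 in OUT, with no overlap, and differed by 3.42 (standard error 0.45, limma adjusted p = 0.0162). The brighter ranged from 11.06 to 12.79 in IR and from 9.13 to 11.09 in OUT, and differed by 1.92 (standard error 0.35). INSIG1 was the only 1 of 6 measured genes of sterol sensing to be called, beside 0.229% of all probesets called higher. SREBF2, the factor of cholesterol synthesis, stood at 0.81 (standard error 0.24, exact permutation p = 0.026), a difference under 2-fold, and SCAP, its escort protein, at 0.39. Of 6 genes of sterol efflux only LPCAT3, which remodels membrane phospholipids, was called, 2.62-fold higher, and its dimmer probeset was 3.52-fold higher. ABCA1, the cholesterol exporter, pointed the other way at -1.04 without being called, and a further probeset that the study named ABCA1 was called lower at -1.38 with OUT piglet 3 and not without it (-1.07). MYLIP, a ubiquitin ligase induced by sterols, stood at -1.19 and was not called.

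The genes of fat packaging differed most through OUT piglet 3. APOA2, an apolipoprotein of high-density lipoproteins, ranged from 9.45 to 11.81 in IR (median 11.04) and from 2.51 to 9.11 in OUT (median 7.70). All IR piglets were above all OUT piglets, while the IN piglets spread from 2.76 to 10.26 and so reached into IR. The difference was 3.95 (standard error 1.25, exact permutation p = 0.00216). Without OUT piglet 3, the lowest OUT value at 2.51, it was 3.08 and not called. Of the 15 measured genes of this group APOA2 and AGPAT2, an acyltransferase on the way to triglycerides (1.38), were called, beside 0.229% of all probesets called higher. Neither was called without OUT piglet 3. The group median dropped from 1.35 to 0.21 in its absence. FABP1, a fatty acid carrier of enterocytes, was at 4.18 in OUT piglet 3 and at 12.01 to 13.67 in the other OUT piglets, against 12.73 to 14.10 in IR, and was not called. STARD10, a phospholipid transfer protein, did not depend on it. It ranged from 6.79 to 8.72 in IR (median 7.92) and from 3.85 to 6.52 in OUT (median 5.17), a complete separation in which IN lay between at 6.65 ± 1.17 (SD, n = 6). STARD10 was 6.53-fold higher in IR (log2 difference 2.71, standard error 0.55, exact permutation p = 0.00216) and stood at 2.65 without OUT piglet 3.

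The metallothionein transcripts had the largest difference of all but were split within IR. MT1A, listed by the study as MT1J, lay near the top of the array's range in IR piglets 3, 4 and 6, at 13.81, 14.04 and 13.85. The other IR piglets stood at 8.79, 6.41 and 8.96, within the OUT range of 3.96 to 9.44, whose highest value was that of OUT piglet 3. The difference of 4.84 (standard error 1.24, exact permutation p = 0.0173) was 28.7-fold, and the IN piglets were all low, at 3.47 to 5.73. It was called with any 1 array left out, but its size moved, to 45.4-fold without OUT piglet 3 and, on the log2 scale, to 5.76 without IR piglet 2 and 4.23 without IR piglet 4. The probeset that the platform names EF1ALPHA and the study MT1J followed the same split, with 13.58 to 13.72 in those IR piglets and 9.17 to 10.3 in the others, and was higher by 3.93 (standard error 0.99). MT-2B, listed as MT2A by the study, was at 11.78, 12.62 and 11.99 in IR piglets 3, 4 and 6. It was at 11.84 in OUT piglet 3 and was not called with all piglets. Without OUT piglet 3 it was called (3.50), and so it was without IR piglets 1 and 2 (3.95). MT3 was raised in IR piglets 3 and 4 alone, at 8.90 and 9.62, while all other day 5 piglets stood at 3.29 to 4.70. SLC39A4, the zinc importer of the enterocyte surface, was lowest among IR in the same piglets 3, 4 and 6, at 7.08, 6.57 and 7.31. The 5 OUT piglets other than piglet 3 lay at 9.21 to 10.98, and without piglet 3 (4.74) SLC39A4 was called lower in IR by 1.80 on the log2 scale. Of 10 measured genes of metal binding and transport MT1A alone was called in the full comparison, beside 0.229% of all probesets called higher. The primers with which the study amplified MT1J are shown because the platform and the study name this transcript differently.
MT1J forward: gtgtagctgctgtgcctgatg
MT1J reverse: caggttggcccacattcc

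RBP4, the blood carrier of retinol, was read differently by its probesets. On 1 probeset it ranged from 3.95 to 9.55 in IR (median 6.92) and from 8.91 to 11.27 in OUT (median 9.92), and it fell by 2.86 (standard error 0.84, exact permutation p = 0.0216). IR piglets 5 and 6, at 9.40 and 9.55, lay within the OUT range. The brighter RBP4 probeset stood at 10.23 to 10.93 in IR and 9.26 to 10.88 in OUT, a difference of 0.46 that did not pass. A direction for RBP4 therefore rests on the choice of probeset.

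**Figure D4:**
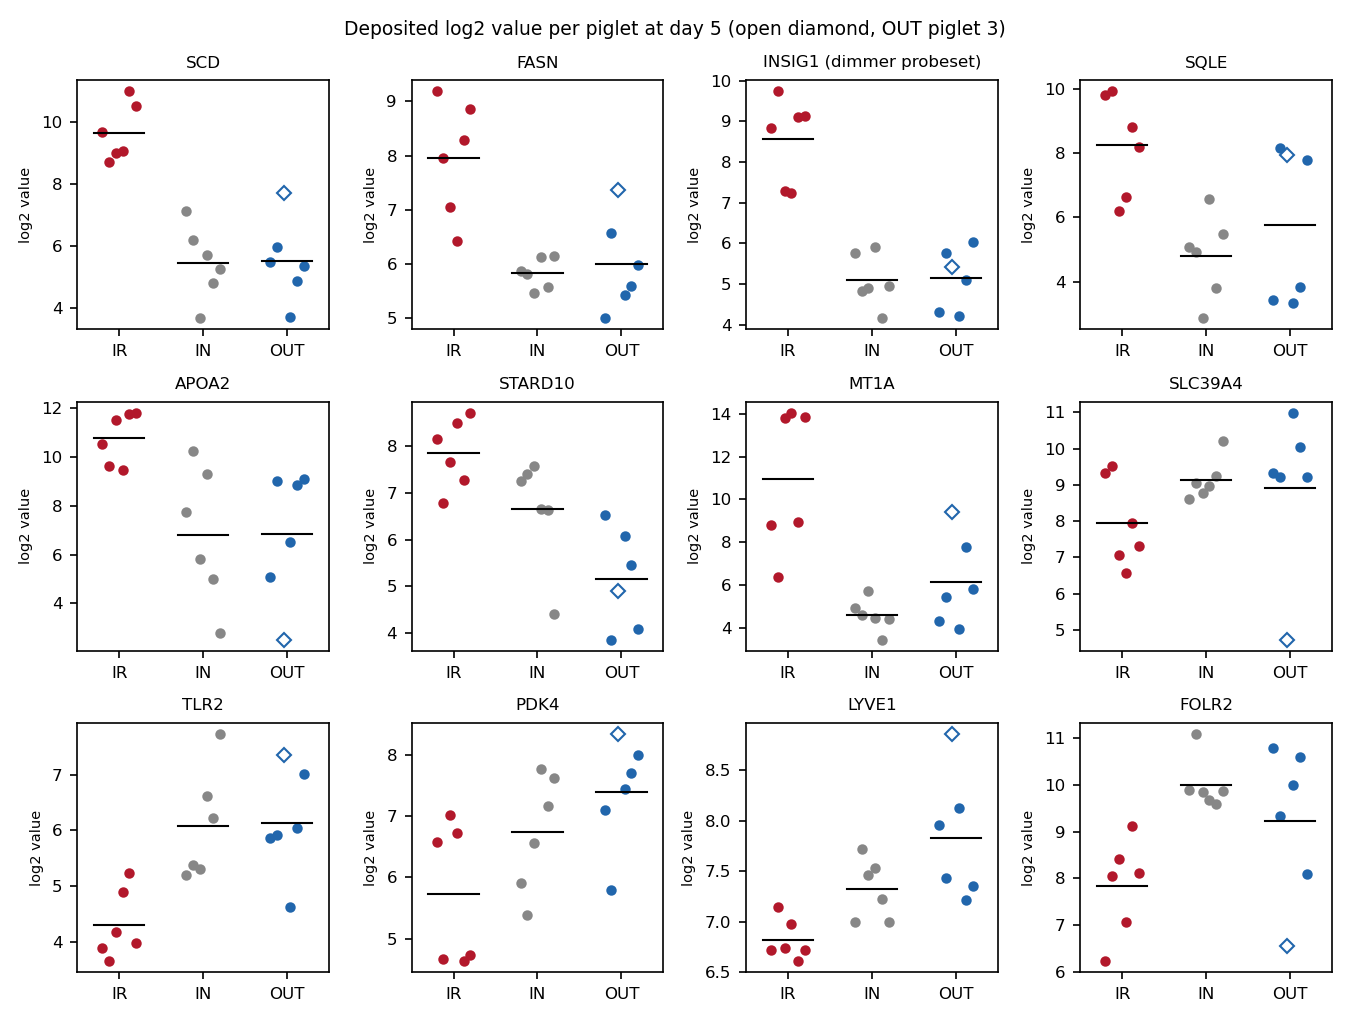
Deposited log2 value (vertical axes) of 12 transcripts in each day 5 piglet of IR, IN and OUT (horizontal axes), with the group mean as a line and OUT piglet 3 as an open diamond. SCD, INSIG1, APOA2 and STARD10 separate IR from OUT completely, MT1A is near 14 in 3 IR piglets only, and SQLE forms a high and a low cluster among the OUT piglets.

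Interferon-induced genes were higher in IR, largely through IR piglets 1 and 2. The difference was above 0 for all 22 genes of this list on the array, beside 53% of all probesets, with a median of 1.73. Of these genes 4 were called higher (IRF7, USP18, IFI27 and PARP12), beside 0.229% of all probesets. Between IR and IN none of the 22 was called. The mean over the list was 7.49 in IN piglets 1 and 2, 6.27 to 6.59 in the other IN piglets and 5.44 to 7.05 in OUT. IRF7, the factor that amplifies interferon production, ranged from 5.62 to 10.24 in IR (median 6.50) and from 3.69 to 5.80 in OUT (median 5.46). PARP12, an antiviral ADP-ribosyltransferase, ranged from 8.50 to 11.27 in IR and from 6.50 to 8.58 in OUT and was higher by 1.67 (standard error 0.52, exact permutation p = 0.00433). For both genes the lowest OUT value was that of piglet 3, and none of the 4 was called without it, though the list median was still 1.43. UBE2L6, a conjugating enzyme for ISG15 named by the study only, was higher by 1.95 and was called with and without OUT piglet 3, but not without IR piglets 1 and 2. RSAD2 (viperin) had the largest difference of the list, 3.46, and was not called, though 6 fits with 1 array left out called it. The highest single values were those of effectors that did not pass, with the other IR piglets near OUT. XAF1 was at 10.02 at most in IR with a median of 3.51, IFIT1 at 12.11 with a median of 4.68, and ISG15 at 13.33 with a median of 7.84. The OUT piglets reached at most 3.38 for XAF1, 6.14 for IFIT1 and 7.65 for ISG15. Without IR piglets 1 and 2 none of the 22 was called, 20 were still above 0 and the median was 0.54, and IFIT1 turned to -0.31.

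In the same piglets other lists deviated as well. Genes of MHC class I and peptide loading, 14 in number, had means of 10.02 and 9.92 in IR piglets 1 and 2, 8.80 to 9.02 in the other IR piglets and 8.59 to 9.10 in OUT. Proliferation genes, 16 in number, were at 7.60 and 7.32 in these piglets and at 6.11 to 6.72 in the other IR piglets. Vacuolated enterocyte genes, 12 in number, were at 10.21 and 10.45 against 11.12 to 11.37. None of the MHC class I or proliferation genes was called, and the part of cell composition in the interferon values was not tested. MHC class II genes had a median of -0.18 over 10 genes and none was called. SLA-DQA1 (-0.85), SLA-DRB1 (-0.70) and SLA-DMA (0.82) pointed in different directions. The primers for IRF7 are given because it is the called interferon gene that the study measured again.
IRF7 forward: ctgcgatggctggatgaag
IRF7 reverse: taaagatgcgcgagtcgga

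**Figure D5:**
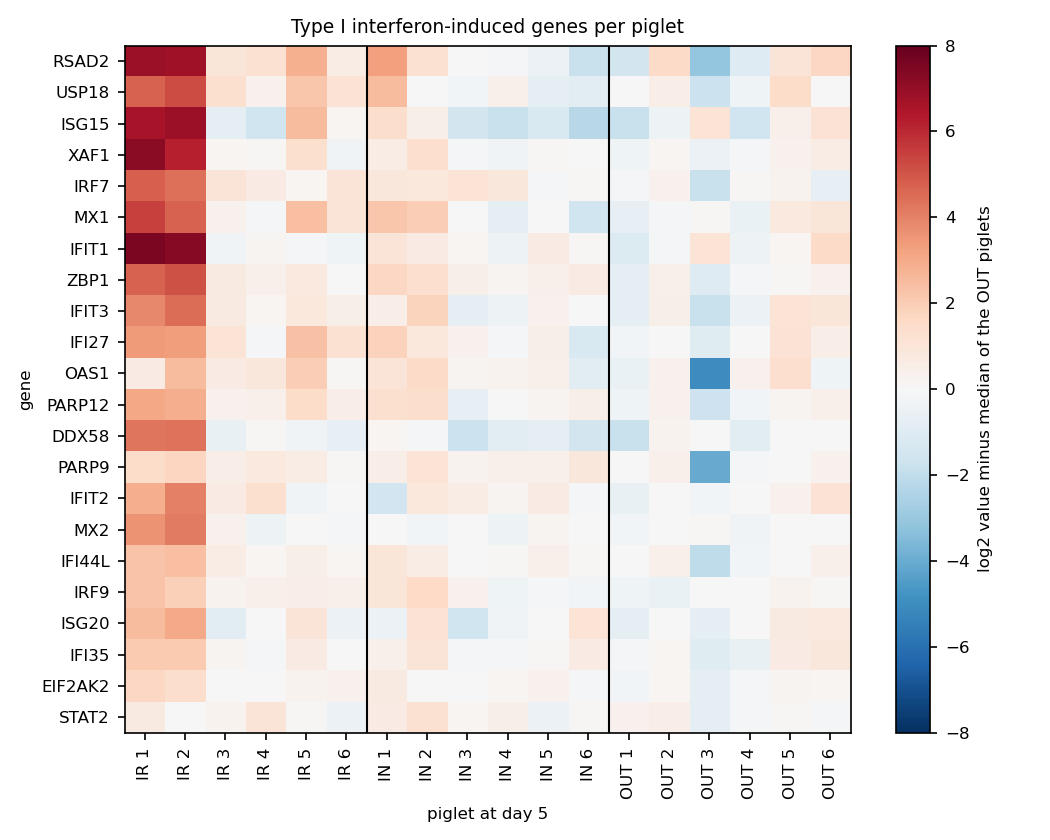
Log2 value minus the median of the 6 OUT piglets (colour) for 22 genes induced by type I interferon (vertical axis) in each day 5 piglet (horizontal axis). IR piglets 1 and 2 are the dark columns, darkest for IFIT1, XAF1, RSAD2 and ISG15, and OUT piglet 3 is low for OAS1 and PARP9.

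Bacterial sensing differed at TLR2, the receptor for bacterial lipoproteins. It ranged from 3.65 to 5.23 in IR (median 4.08) and from 4.62 to 7.35 in OUT (median 5.97), with overlap only between OUT piglet 4, at 4.62, and IR piglets 4 and 5, at 4.90 and 5.23. TLR2 fell by 1.83 (standard error 0.47, exact permutation p = 0.00649) and by 1.59 without OUT piglet 3. It was the 1 of 16 genes of bacterial sensing and NF-kappaB to be called, beside 0.108% of all probesets called lower. LBP, which hands bacterial lipopolysaccharide to its receptor, was called only without OUT piglet 3. All 6 IR piglets, at 9.31 to 10.42, were then below the 5 OUT piglets at 10.46 to 11.21, and LBP was lower by 1.22 on the log2 scale. The 23 cytokines and chemokines had a median of -0.43 with all piglets and 0.06 without OUT piglet 3, and none was called. CCL28, a mucosal chemokine that the study alone assigns to its probeset, was higher by 1.55 (standard error 0.51, exact permutation p = 0.0476), with IR at 4.21 to 7.03 and OUT at 3.06 to 5.78. Its amplification primers are printed because the probeset has no platform symbol.
CCL28 forward: tgcagcacacaggacttgct
CCL28 reverse: ggaggcaatgggaagtatagctt

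PDK4 and KLF9, genes of fuel choice and glucocorticoid response, were lower in IR. PDK4, the kinase that turns off glucose oxidation, ranged from 4.63 to 7.02 in IR (median 5.66) and from 5.80 to 8.34 in OUT (median 7.58). IR piglets 2, 5 and 6 lay at 4.63 to 4.73, below all OUT piglets, and IR piglets 1, 3 and 4 at 6.58 to 7.02, within the OUT range. The difference of -1.67 (standard error 0.55, exact permutation p = 0.026) was called, but not without OUT piglet 3, the highest OUT piglet (-1.49). It was the 1 of 16 genes of fatty acid oxidation to be called, beside 0.108% of all probesets called lower. KLF9, a glucocorticoid-induced transcription factor, was 2.15-fold lower (log2 standard error 0.31, exact permutation p = 0.00866), and FKBP5, a chaperone partner of the glucocorticoid receptor, stood at -0.64 and was not called. Of 12 glucocorticoid-responsive genes 11 had a difference below 0, beside 11298 of all 24032 probesets. Their median was -0.36 (-0.26 without OUT piglet 3). KLF9 was the 1 called, beside 0.108% of all probesets called lower. Without that piglet it stood at -0.88, under the fold threshold.
The PDK4 primers are shown because the study also measured this gene by real-time PCR.
PDK4 forward: tggtatgtgtgaaagcaaaggaa
PDK4 reverse: aagtgggcctgaacagtcagtt

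Other called decreases included genes of vessels and of calcium channels. LYVE1, a hyaluronan receptor of lymphatic endothelium, ranged from 6.61 to 7.15 in IR (median 6.73) and from 7.21 to 8.86 in OUT (median 7.70). No value overlapped (exact permutation p = 0.00216), and IN lay between at 7.32 ± 0.30 (SD, n = 6). LYVE1 fell by 1.01 (standard error 0.23), and stood at -0.80 without OUT piglet 3, whose value of 8.86 was the highest. It was the 1 of 16 endothelial genes to be called, beside 0.108% of all probesets called lower. All 16 had a difference below 0, beside 11298 of all 24032 probesets, with a median of -0.49. Of them 6 had a limma p under 0.05, beside 2.81% of all probesets lower at that p. Without OUT piglet 3 the median was -0.11, 12 were below 0, and 3 had a limma p under 0.05 in that direction, beside 3.19% of all probesets. AGTR1, an angiotensin II receptor, fell by 1.30 (standard error 0.32) and was as low without OUT piglet 3 (-1.36). CACNA2D1, an accessory subunit of calcium channels, ranged from 3.84 to 6.48 in IR and from 6.15 to 8.23 in OUT and fell by 1.80 (standard error 0.46, exact permutation p = 0.00433). SAMD4A, an RNA-binding repressor of translation, fell by 1.59 and by 1.09 without OUT piglet 3, where it stood at 10.59. PTGES, a prostaglandin E synthase (-1.06), PMEPA1, a target of TGF-beta (-1.17), and DESI2 (-1.11) were called only with that piglet.

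Several probesets with lower values carry conflicting or incomplete names. The probeset that the platform names RPS27A, a ubiquitin and ribosomal protein fusion, and the study SLC39A10, a zinc importer, had the third smallest p of the comparison. It ranged from 5.57 to 7.15 in IR and from 7.90 to 8.74 in OUT with no overlap, fell by 1.56 (standard error 0.25) and had a limma adjusted p of 0.0611. MAP6, a microtubule-associated protein, is named by the study alone and was lower by 1.53 and, without OUT piglet 3, by 1.90. The probesets given to B2M or HBA1 and to OAZ1 or HBB by the platform and the study were lower by 1.48 and 1.32 and were both called, and the means of IN, 12.96 and 13.17, were above those of OUT.

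Increases outside the groups above included the reductase DHRS4, which acts on retinal and other carbonyls (1.57), the peptidase DNPEP (1.46), the adiponectin receptor ADIPOR2 (1.45), ASB13 (1.11), the nuclear exporter XPO1 (1.15) and NAXE, which repairs damaged NADH (1.07). Of these 6, DHRS4 was called without OUT piglet 3 (1.06) and the other 5 were not. DNPEP stood at 4.91 in OUT piglet 3 and ADIPOR2 at 3.58, the lowest of their groups. By the study's annotation the sigma receptor OPRS1 was higher by 1.41, with IR at 9.82 to 10.79 and OUT at 7.44 to 9.34, and the phosphodiesterase PDE5A by 1.08. For ZNF507 and C17orf27, also named by the study only, the IN piglets resembled IR. ZNF507 had means of 7.84 in IN and was higher in IR than in OUT by 2.08, and C17orf27 had means of 8.70 in IN and was higher by 1.48. The difference between IR and IN was 0.06 for ZNF507 and -0.08 for C17orf27.

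The 22 probesets called lower only without OUT piglet 3 held 12 with a symbol, and the following were picked after their values were seen. FOLR1 and FOLR2, the folate receptors, were lower in IR by 2.15 and 1.93 on the log2 scale. FOLR2 ranged from 6.23 to 9.12 in IR and stood at 6.55 in OUT piglet 3, against 8.10 to 10.80 in the other OUT piglets and 9.59 to 11.09 in IN. UPK3A, a uroplakin of surface membranes, ranged from 6.12 to 8.19 in IR and from 8.29 to 11.60 in those 5 OUT piglets, a complete separation. MMP20, a metalloproteinase known from tooth enamel, was lower by 3.04, with IR piglets 3 and 6, at 9.16 and 7.71, inside the range of the other 5 OUT piglets. SERPINI1, a protease inhibitor, was at 9.66 to 10.79 in IR and 10.99 to 11.72 in the 5 OUT piglets, and NAAA, a lysosomal amidase, was lower by 1.69. For NAAA the difference between IR and IN was -0.06, with IN at 6.52 ± 0.83 (SD, n = 6), and for SERPINI1 it was -0.85, with IN at 11.10 ± 0.33 (SD, n = 6). All of these stood lowest in OUT piglet 3 among the OUT piglets, between 2.70 for MMP20 and 8.23 for SERPINI1.

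Genes of oxidative phosphorylation differed little, all in the same direction. All 49 measured subunits had a difference above 0, beside 53% of all probesets, with a median of 0.24 and none called. Of them 10 had a limma p under 0.05 in the higher direction, beside 3.46% of all probesets. Without OUT piglet 3, which had the lowest mean of the list at 10.01, the median was 0.14 and 46 were above 0. Only 3 of the 49 then had a limma p under 0.05 in that direction, beside 930 of all 24032 probesets. Collagens and matrix genes had all 18 differences below 0, beside 11298 of all 24032 probesets, with a median of -0.33 and none called. Without OUT piglet 3 their median was -0.13. The 46 cytosolic ribosomal protein genes had a median of 0.01. Genes of vacuolated enterocytes changed from a median of 0.01 with all piglets to -0.37 without OUT piglet 3. In that fit 3 of 12 had a limma p under 0.05, all lower in IR, beside 3.19% of all probesets, and none was called. Without IR piglets 1 and 2 instead, the median was 0.33 and all 12 differences were above 0, beside 12082 of all 24032 probesets. The mean of this list was 10.21 and 10.45 in those 2 piglets and 11.12 to 11.37 in the other IR piglets. It was 10.62 to 11.64 in the OUT piglets other than piglet 3. The direction of this list therefore rests on which piglets are included. Markers of T cells (11 genes, median -0.06), B and plasma cells (6, -0.09) and goblet cells (6, -0.02) held no called gene. FABP6, the ileal bile acid binding protein, was at 8.19 in IR piglet 2 and 4.84 in OUT piglet 6, and at 2.32 to 3.92 in all other day 5 piglets.

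At day 28, the age at which the study weaned its piglets, different animals of the same groups were measured. The difference between IR and OUT at day 5 was set against that at day 28 in 1 fit of 24 arrays, in which 47 probesets were called (0.196%) and none had an adjusted p under 0.05 by limma, with 793 at an unadjusted p under 0.05. Of the 81 probesets called at day 5, 70 had the same sign at day 28. The share of all probesets with the same sign at both days was not counted, so the 70 cannot be read against it. Of the 81, 15 were called at day 28 in the same direction, where 63 of all probesets were called (0.262%). Among the 15 were SCD (3.57), FASN (1.80), both INSIG1 probesets (2.01 and 3.37), FDPS (1.47), EBP (2.09), AGTR1 (-1.19) and PDK4 (-3.54). The change of difference was called for 9 of the 81. Since the 81 were chosen for a large day 5 difference and the change uses the same day 5 arrays, such calls were favoured beforehand. The 9 therefore cannot be read against the share over all probesets. STARD10 was higher by 2.71 at day 5 and stood at -0.37 at day 28. TLR2 moved from -1.83 to -0.01, CACNA2D1 from -1.80 to 0.09, SAMD4A from -1.59 to 0.17, and the study's MAP6 from -1.53 to 0.33. FOXRED1, an assembly factor of respiratory complex I, moved from 1.07 to -0.43. Its day 5 call was lost without OUT piglet 3 (0.92), IR piglet 6 or OUT piglet 2. GSTA1, a glutathione transferase named by the study, moved from 1.14 to -1.55. SLC11A2, the iron importer, was not called at either day, but stood at -0.85 at day 5 and 0.90 at day 28, and the change of -1.75 was called.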

How the data were processed

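Total RNA of 54 ileal samples was hybridized to Affymetrix porcine arrays, 1 per piglet. The authors scanned them with GCOS 1.2, normalized them by gcRMA and deposited log2 values, which were used as deposited. Groups and replicate numbers came from the labels, which do not name the run in which a piglet was kept. The genome build and annotation of the probes are not given in the sources used here. The table holds 24123 probesets, and without its 91 control probesets 24032 remained for testing, dim values included. The platform annotation gives 10099 probesets 1 symbol, 198 several and 13735 none, and 9989 symbols were matched to the RefSeq table by gene ID.

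The 18 day 5 arrays (IR, IN, OUT) were fitted with limma 3.58.1 in R 4.3.3 without a block, since the runs on which the study blocked are not in the labels. Calls needed p under 0.01 before adjustment together with a change of 2-fold or more, and Benjamini-Hochberg adjustment ran over every tested probeset. Day 5 was set against day 28 in a fit of 24 arrays with 4 groups. Two-sided exact permutation tests over 6 and 6 piglets have a smallest p of 0.00216. Arrays give no counts, so the number of arrays limits the precision. Gene lists are described by counts and medians, each gene by its brightest probeset. The fits were tested on simulated data. Named were the 20 largest called changes in each direction with a symbol, up to 4 genes of smallest p per list, genes the study names and those with an adjusted p under 0.05, and genes outside this rule, which include all those named by the study's annotation only or called only without OUT piglet 3, were chosen after their values were seen. Groups, lists, rule and members were chosen with earlier results of these data known. Alternatives were blocks by replicate number, other sets of arrays, a filter on dim probesets (a log2 value of 4 in 6 arrays), quantile normalization, median centring, array weights, trend and robust fitting, an F-test, the mean of a gene's probesets and each array left out. The fits without IR piglets 1 and 2 were added after seeing the data. Primer sequences were copied from the study's supplement, and promoter sequences were not analysed here. A few called transcripts are not reported here.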

Additional observations from a re-analysis of the deposited data

Results flagged for a closer look

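Of 222 groups of 6 values examined, 26 held a piglet whose gap to its nearest neighbour, as a share of the group's range, was above Dixon's critical value, and 24 of these were OUT piglet 3. Chance flags about 1 in 20 groups, and the groups here are not independent, since the same piglets recur. SLC39A4, LBP, NAAA and SERPINI1 were named because they were called only without OUT piglet 3, so their flags were partly fixed by that choice and the count cannot be read against chance. The gap as a share of the range was 0.925 for the mean of neutrophil and mast cell genes, 0.884 for apolipoprotein genes, 0.864 for cytokines, 0.85 for the brush border, 0.838 for endothelium, 0.795 for glucocorticoid-responsive genes, 0.755 for collagens, 0.751 for bacterial sensing, 0.679 for vacuolated enterocytes and 0.677 for smooth muscle. OUT piglet 3 was lowest in OUT for FABP1 (0.825), MVK (0.797), SERPINI1 (0.789), LBP (0.767), AGPAT2 (0.761), SLC39A4 (0.716), SLA-DMA (0.715), DNPEP (0.705), PARP12 (0.644), NAAA (0.643) and ADIPOR2 (0.639). It was highest for DESI2 (0.824), SAMD4A (0.744) and CLDN5 (0.743), the last being a tight junction protein of endothelium. The other flagged values were both FABP6, with a share of 0.929 for IR piglet 2 and 0.734 for OUT piglet 6.

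A change in the difference between IR and OUT from day 5 to day 28 was called for 9 of the genes named. All but SLC11A2 had been called at day 5 on the same arrays, so this count cannot be read against chance. On the log2 scale the change, day 5 minus day 28, was 3.07 for STARD10, 2.69 for GSTA1 and 1.51 for FOXRED1. It was -1.88 for CACNA2D1, -1.85 for MAP6, -1.82 for TLR2, -1.76 for SAMD4A, -1.75 for SLC11A2 and -1.24 for the probeset named RPS27A or SLC39A10. None of these had an adjusted p under 0.05 in limma.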

How the results depend on the processing

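Of the 81 probesets called, leaving out 1 array at a time gave 45 to 111 (34 to 71 higher, 11 to 47 lower) and 0 to 3 at an adjusted p under 0.05. The count fell to 45, with 34 higher, 11 lower and 0 adjusted, without IR replicate 2, and the lower count rose to 47 and 41 without OUT replicates 5 and 6. The comparison of IR and IN gave 51 to 142 probesets against 88, and FABP6 reached from -0.50 to 0.78. With IR and OUT alone 50 were called (35 higher, 15 lower) and 0 by adjusted p. Over all 9 groups 51 were lower, and the F-test left 15 lower. Without IR replicates 1 and 2 there were 49, 11 of them lower, and 0 by adjusted p, and without OUT replicate 3 as well 43 (29 higher, 14 lower). IFIT1 then turned to -0.31 and -0.12 and FABP6 to -0.45 and -0.44. Averaging the probesets of a gene ended 17 calls of named transcripts, FASN, KLF9, LYVE1 and SAMD4A among them, added 2, left 17 results on their side of the threshold and turned the brighter RBP4 probeset to -1.20. Array weights gave 82 calls, 52 of them among the 81, with 17 calls of named results lost, 10 gained and 4 by adjusted p. The filter on dim probesets gave 5 by adjusted p.

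Labels give all groups the same replicate numbers. Same-numbered IR and OUT piglets correlated at -0.537 to 0.395 in their deviations. So few and scattered values cannot tell whether the numbers mark piglets of the same run. The study blocked on its runs, and numbers in twos (1 and 2, 3 and 4, 5 and 6) are a guess at these. IR and OUT piglets that shared such a pair of numbers correlated at -0.288, 0.0897 and 0.0764 on average. The IR piglets of a pair correlated at 0.436, 0.396 and 0.0334, and the OUT piglets at 0.227, -0.648 and 0.162. With the replicate number as a block 82 probesets were called, 66 of them among the 81, and 0 passed by adjusted p. The block of numbers in twos gave 108, which held 80 of the 81, and 1 by adjusted p. With IR and OUT alone the block by number gave 49 (35 higher, 14 lower) and 0, and the block in twos 74 and 0. The cause of these changes was not tested.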

Other observations

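Further gene lists held no called gene between IR and OUT at day 5. Proliferation genes, 16 in number, all had a difference above 0, beside 53% of all probesets. Their median was 0.42, and 0.10 without IR piglets 1 and 2. Enteric neuron and glia genes had a median of -0.53 over 9 genes, and -0.26 without OUT piglet 3. Mucosal antimicrobial genes had a median of -0.21 over 13 genes and 0.16 without that piglet, in which the calprotectin subunit S100A9 and the iron binder LTF were high and contributed differences of -1.73 and -1.50 that were 0.17 and 0.12 in its absence. Genes of glucose handling had a median of 0.36 over 12 genes and -0.13 without OUT piglet 3. The amino acid deprivation response (8 genes, median -0.08), heat shock and protein folding (17, 0.06), the circadian clock (7, -0.18), retinol handling (7, 0.06), interferon gamma-induced genes (7, 0.28), macrophage and dendritic cell markers (15, 0.10), enteroendocrine markers (9, -0.20) and pancreatic markers (7, 0.03) held none either, with a median over all probesets of 0.01. Without OUT piglet 3 the amino acid deprivation list stood at 0.18 and the interferon gamma list at 0.50. In IR piglets 1 and 2 the heat shock list stood at 11.79 and 11.74, against 10.85 to 11.57 in the other IR piglets.

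Red blood cell genes, 4 in number, had a median of -0.62, and OUT piglet 3 had the highest OUT mean of this list at 6.61, against 4.23 to 4.85 in the other OUT piglets. The differences of the erythroid genes ALAS2 and AHSP were -1.38 and -0.91, and the platform's own HBB probeset stood at -0.33. Ileal bile acid handling was represented on the array by FABP6 alone.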
